A study of Mus musculus with 8 samples.

Results

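The insulin-like growth factor (IGF) axis was followed in C2C12, a mouse myoblast line, in which the long non-coding RNA Pvt1 had been silenced. It was taken as the ligands Igf1 and Igf2, the receptors Igf1r and Igf2r, the binding proteins Igfbp2 to Igfbp6 and the adaptor Irs1. Every probe that the array design assigns to one of these 10 genes was included, whatever its signal, which gave 19 of 56605 probes, or 10 of 37074 gene names on the array. Of these, 15 probes of 9 genes had enough positive spots to be tested. The 4 probes that could not be tested were both probes of Igf2, 1 of Igf1 and 1 of Igfbp3.

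RNA came from 8 cultures of proliferating C2C12 myoblasts at passage 10, each hybridised to 1 one-colour Agilent mouse array. All 8 cultures had been transfected by Lipofectamine 2000 with antisense LNA GapmeRs, short modified DNA strands that recruit RNase H to a matching transcript. Pvt1 GapmeRs named Pvt1_1 and Pvt1_3 were given in the silenced group (n = 4) and negative control GapmeRs in the control group (n = 4). By the study's methods the cells were lysed as soon as the transfection medium came off, and whether one culture received both Pvt1 oligonucleotides is not given in the sources used here. C2C12 is a single established line, so the 4 cultures of a group are biological replicates of that line only. The 2 Pvt1 oligonucleotides, as the labels write them, are shown because they define the treatment.
Pvt1_1: accgtagtagagttaa
Pvt1_3: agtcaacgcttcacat

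IGF1 and IGF2 are secreted peptides that bind the receptor tyrosine kinase IGF1R, which phosphorylates adaptors such as IRS1 and so feeds the PI3K-Akt-mTOR and Ras-MAPK branches. IGF2R binds IGF2 and carries it to lysosomes without kinase signalling. The IGF binding proteins hold the ligands outside the cell and can restrain or prolong their action. In muscle the axis is known for myoblast proliferation, differentiation and fibre growth, and IGFBP5 for its induction early in myogenic differentiation.

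Signal is given throughout as log2 of the background-corrected processed intensity after quantile normalization between arrays, and a change is the silenced mean minus the control mean on that scale. A probe was called at a limma p-value under 0.05 after Benjamini-Hochberg adjustment over all 28649 tested probes. The median change of all tested probes was -0.19, and cyclic loess moved it to 0.02, so the change relative to that median is given where it matters. Pvt1 itself, on its brightest tested probe, fell by 2.86 (SE 0.32, limma adjusted p 0.000682) to 13.8% of control, with silenced arrays at 6.39 to 7.85 and control arrays at 9.65 to 10.31. Control replicate 3 (mean correlation of 0.964 with its group, against 0.981 for the other controls) and silenced replicate 4 (51.6% of spots positive, against 59.8% to 61% on the other silenced arrays) stood apart, and values without them are given where a call, a sign or the size of a member's change moved most.

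The probes that carry the results lie in Igfbp2, Igfbp5 and Igf1r, and their sequences are shown for that reason. The Igfbp2 probe (chr1:72898677-72898736, plus strand, mm9) starts at base 958 of NM_008342 and ends on a stop codon, in capitals, so it covers the end of the coding sequence. Igfbp5 lies on the other strand of the same chromosome with its 3′ end towards that of Igfbp2, and 5769 bases separate the Igfbp2 probe from the nearer Igfbp5 probe. The Igfbp5 probe on the 5′ side (chr1:72904829-72904888, minus strand) and the one on the 3′ side (chr1:72904506-72904552, minus strand) are 336 bases apart, and the latter holds a polyadenylation signal, AATAAA, in capitals. The position given for this 3′ probe spans fewer bases than the 60 of its sequence, and the reason was not examined. The Igf1r probes (chr7:75371371-75371430 and chr7:75371556-75371615, plus strand) start at bases 4795 and 4980 of NM_010513, 185 bases apart. The Igfbp2 probe is given whole and 30 bases of each of the others. Exon and UTR annotation of these positions was not analysed here.
Igfbp2 A_55_P2056729: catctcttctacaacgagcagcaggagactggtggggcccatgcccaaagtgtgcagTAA
Igfbp5 A_52_P281702, 5′ side: tgttacgttcagacaccgtagctctgtcct
Igfbp5 A_66_P101782, 3′ side: ggtacttaaggaAATAAAaaagaaaaacct
Igf1r A_55_P2736764, 5′ side: cctcagtggatcttcagacctgccattgct
Igf1r A_51_P318365, 3′ side: attgagtctcttcgttctctgcctttttct

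After silencing, Igfbp2, one Igf1r probe and one Igfbp5 probe fell, and the other Igfbp5 probe rose. Of the 15 tested probes, 4 were called (26.7%), 3 of them lower and 1 higher, where 23.2% of all tested probes were called, 18.4% lower and 4.79% higher. The share of called probes on the axis was therefore close to that of the whole array. The split depended on scaling: cyclic loess called 4 axis probes lower and 3 higher, and over all probes 5258 lower and 5416 higher in place of 5269 and 1373. The 4 calls fell in 3 genes. Before adjustment 6 of the 15 had a p under 0.05. The groups did not overlap on 5 probes (33.3%), against 28.2% of all tested probes. The median change of the 15 was 0.03, or 0.22 above the median of all probes. Only 10 of the 15 tested probes were well above background on all 8 arrays, so several values below come from dim spots.

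**Figure D1:**
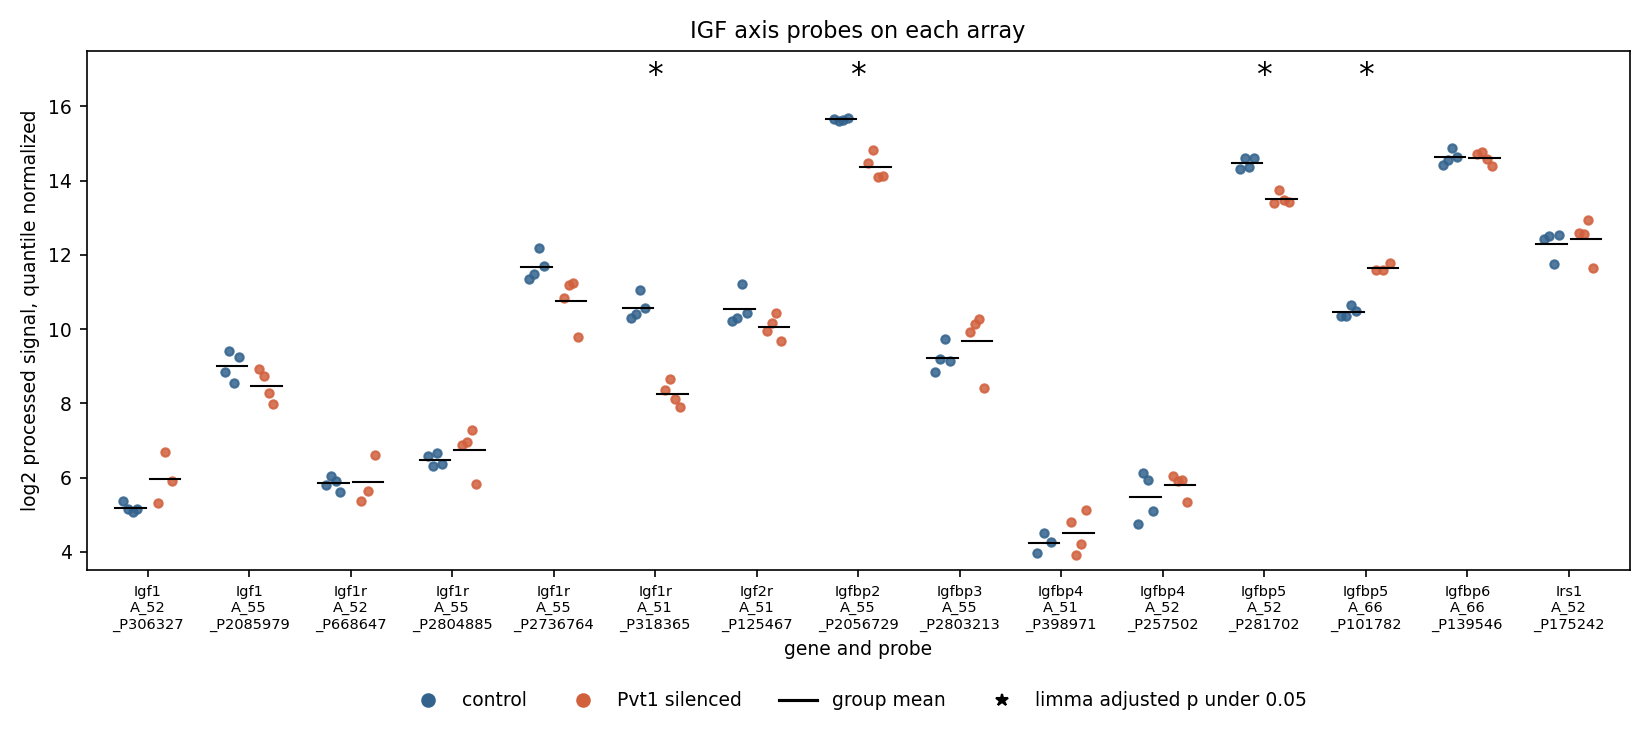
Each point is 1 array, with log2 processed signal after quantile normalization on the vertical axis and the 15 tested probes of the IGF axis along the horizontal axis, ordered by role and then from 5′ to 3′. Black lines are group means and asterisks mark probes called by limma. The 4 silenced arrays of Igfbp2 (14.1 to 14.82) lie below all 4 control arrays (15.61 to 15.7), while the 2 Igfbp5 probes moved in opposite directions.

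Of the ligands, Igf1, the main growth-promoting IGF after birth, was measurable on 1 probe and was not called. That probe (A_55_P2085979, chr10:87378456-87378515) gave 8.85, 9.41, 8.55 and 9.24 on control arrays and 8.93, 8.72, 8.28 and 7.98 on silenced arrays. The groups overlapped, with silenced replicates 1 and 2 inside the control range. The change was -0.53 (SE 0.28, 95% interval -1.16 to 0.09, limma adjusted p 0.202). It was called under none of 20 alternatives, between -0.68 and -0.18.

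A second Igf1 probe (A_52_P306327, 53074 bases towards the 5′ end, named for the clone AK050118) was not well above background on any control array and was so on 1 silenced array, which leaves no measurable fold. Its computed change was 0.79 (limma adjusted p 0.111), and ranged from 0.43 without silenced replicate 2 (adjusted p 0.324) to 1.13 without silenced replicate 1, when it was called (adjusted p 0.0435). It was 0.21 with normexp and 0.36 without the mask of dim spots. The third (A_51_P147942) was positive on 1 control array at 4.03 and on silenced replicates 1, 2 and 3 at 6.70, 4.65 and 6.78, and was well above background on 2 of these. It could not be tested.

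These Igf1 values sit beside a shift in transcripts abundant in liver, an organ that makes most circulating IGF1. Of 30 liver markers, 2 or 3 were well above background on each control array and 18, 18, 19 and 9 on silenced replicates 1 to 4. Their summed normalized intensity ranged from 1420 to 2250 in the control group and from 6750 to 9070 in the silenced group. Of the 30, 16 including Alb and Mup1 were well above background on silenced arrays alone, whereas 10, including Apoa1, Apob, Cps1 and Plg, were so on no array. Igfals and Igfbp1, which the liver also makes, gave no spot well above background. The part of these transcripts in the Igf1 values was not tested.

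Igf2, the fetal ligand and an autocrine factor of differentiating myoblasts, could not be tested. Its probe at base 3536 of NM_010514 (A_51_P516833) was positive on 3 control arrays, at 4.59, 6.60 and 4.80, and on no silenced array. Of these, 1 was well above background. The probe at base 990 (A_55_P2118173) was positive on silenced replicate 2 alone, at 4.09, and well above background on none. At this signal a difference in Igf2 was not detectable.

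Of the receptors, Igf1r gave an uneven picture along the gene. The most 3′ probe (A_51_P318365) gave 10.29, 10.40, 11.06 and 10.57 on control arrays and 8.36, 8.65, 8.11 and 7.91 on silenced arrays. Every silenced array lay below every control array. The change was -2.32 (SE 0.25, 95% interval -2.88 to -1.77, limma adjusted p 0.00059), or -2.13 relative to the median, which left 20% of the control signal. It was called under all 20 alternatives, between -2.45 and -1.83.

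The brightest Igf1r probe (A_55_P2736764), 185 bases upstream, gave 11.34, 11.47, 12.18 and 11.70 on control arrays and 10.84, 11.19, 11.24 and 9.79 on silenced arrays. The groups did not overlap here either, although silenced replicates 2 and 3 came close to control replicate 1 and silenced replicate 4 was the lowest. The change was -0.91 (SE 0.34, 95% interval -1.68 to -0.14, limma adjusted p 0.0863), which did not pass the threshold. It was called under 4 of 20 alternatives, cyclic loess among them (-0.75, adjusted p 0.0298), and was -0.41 without both control replicate 3 and silenced replicate 4.

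The 2 Igf1r probes named for the clones AK044980 and AK155079 lie far upstream, at chr7:75332515-75332574 and chr7:75332796-75332855, and were dim. The first was well above background on 1 array of each group. Their computed changes were 0.03 (limma adjusted p 0.963) and 0.25 (adjusted p 0.594). The second was called under 4 of 20 alternatives, at 0.57 with cyclic loess and 0.61 without both arrays that stood apart, but was 0.07 without silenced replicate 3 (adjusted p 0.895). Of the 4 Igf1r probes, the most 3′ one was thus the only one past the threshold in the fit of all 8 arrays.

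Igf2r, the scavenger receptor for IGF2, gave 10.22, 10.29, 11.21 and 10.43 on control arrays and 9.94, 10.17, 10.43 and 9.68 on silenced arrays. The ranges overlapped. Its change was -0.48 (SE 0.27, 95% interval -1.09 to 0.13, limma adjusted p 0.237), and -0.26 without control replicate 3 (adjusted p 0.456). Igf2r and Igf2 belong to imprinted domains with the non-coding RNAs Airn and H19, whose probes moved unequally. H19 was at -0.23 on its brightest probe (limma adjusted p 0.461) and fell by 1.78 without overlap on its other probe (adjusted p 0.00112), both well above background on all 8 arrays. Airn was at 0.23 (adjusted p 0.55) and -0.66 (adjusted p 0.112).

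**Figure D2:**
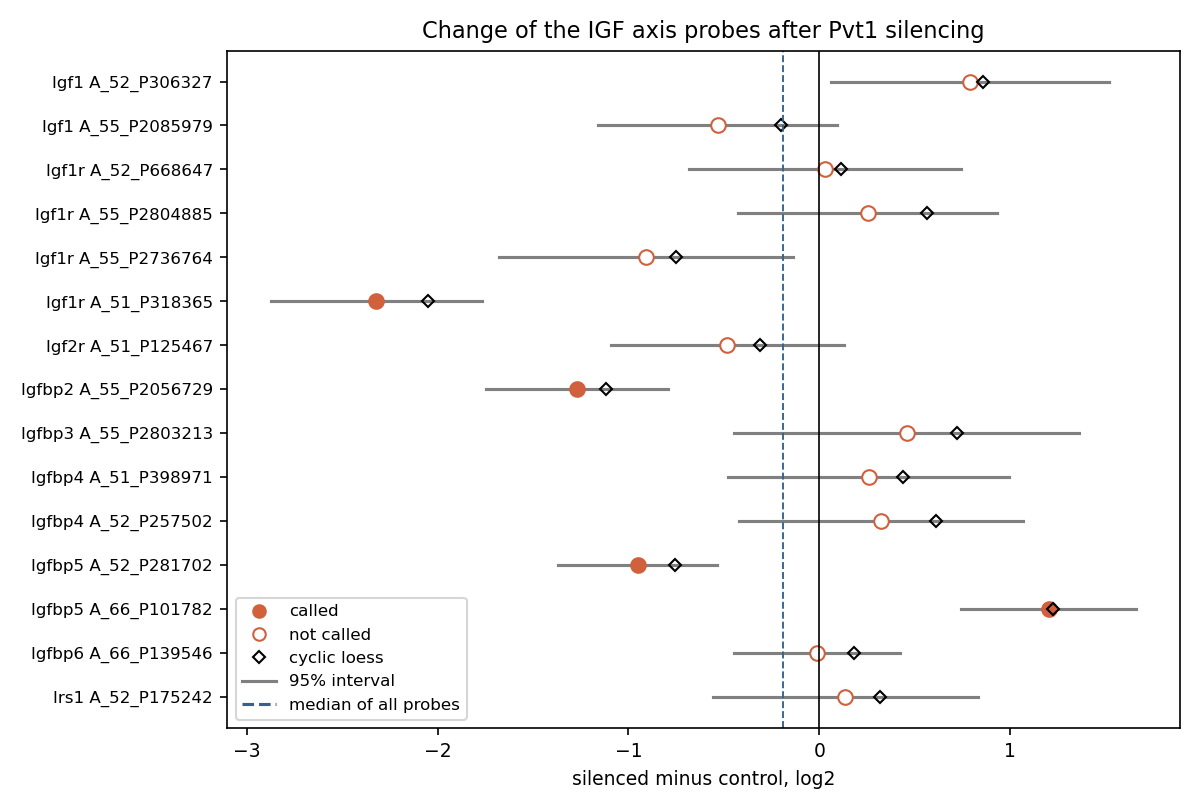
Change of each tested IGF axis probe (circles, silenced minus control, log2, all 8 arrays) with its 95% interval from limma as a grey line. Diamonds are the same change under cyclic loess and the dashed line is the median change of all tested probes, -0.19. Filled circles are the 4 called probes, and under cyclic loess each of them stays on the same side of 0.

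Among the binding proteins, Igfbp2, a mostly growth-restraining carrier made by proliferating cells, fell on every silenced array. Its single probe gave 15.66, 15.61, 15.64 and 15.70 on control arrays and 14.47, 14.82, 14.10 and 14.14 on silenced arrays. The control arrays lay close together, and the highest silenced array was well under the lowest of them. The change was -1.27 (SE 0.21, 95% interval -1.74 to -0.79, limma adjusted p 0.00343), or -1.08 relative to the median, leaving 41.5% of the control signal. It was called under all 20 alternatives, between -1.41 and -0.70, and no member spot was saturated.

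Igfbp5, a binding protein tied to the start of myogenic differentiation, moved both ways. The 5′ probe, which was the brighter, gave 14.31, 14.60, 14.36 and 14.61 on control arrays and 13.40, 13.74, 13.49 and 13.44 on silenced arrays. The silenced arrays were all below the controls, with a change of -0.95 (SE 0.19, 95% interval -1.37 to -0.53, limma adjusted p 0.00679), or 51.7% of control. After a shift to the 75th percentile in place of quantile normalization the change was -0.39 and lost its call (adjusted p 0.0552).

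The 3′ Igfbp5 probe, with the polyadenylation signal, gave 10.35, 10.36, 10.64 and 10.49 on control arrays. On silenced replicates 1, 2 and 3 it gave 11.60, 11.59 and 11.78, all above the controls. The spot on silenced replicate 4 had been marked as an outlier by the scanner software and was left out, so the fit used 3 silenced values. Before normalization that spot read 28400, while the remaining silenced spots read 3030 to 3610 and the control spots 1100 to 1580. The change was 1.20 (SE 0.20, 95% interval 0.74 to 1.66, limma adjusted p 0.00448), or 2.3-fold higher. With the series table, in which that spot has a value, it was 2.10 and lost its call (adjusted p 0.119).

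Igfbp3, the main carrier of IGFs in serum, was not called. Its measurable probe (A_55_P2803213) gave 8.85, 9.19, 9.72 and 9.15 on control arrays and 9.93, 10.13, 10.27 and 8.41 on silenced arrays. Silenced replicates 1 to 3 were above every control, and silenced replicate 4 was below every control. The change was 0.46 (SE 0.40, limma adjusted p 0.455), and with single arrays left out it ranged from 0.26 without silenced replicate 3 (adjusted p 0.714) to 0.90 without silenced replicate 4 (adjusted p 0.0226). It was 1.05 without both arrays that stood apart (adjusted p 0.00381), and 0.72 with cyclic loess (adjusted p 0.0431). The other Igfbp3 probe was positive on no array.

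Igfbp4, a binding protein that restrains IGF action until cleaved by Pappa, was close to background. Its probes had computed changes of 0.26 (limma adjusted p 0.614) and 0.32 (adjusted p 0.531), and the brighter one was well above background on 1 of 8 arrays. Igfbp6, which prefers IGF2, gave 14.43, 14.55, 14.88 and 14.64 on control arrays and 14.71, 14.78, 14.59 and 14.38 on silenced arrays. The groups overlapped, with a change of -0.01 (SE 0.19, 95% interval -0.45 to 0.42, limma adjusted p 0.976), although a shift to the 75th percentile gave a rise of 0.58 that was called (adjusted p 0.0261).

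Irs1, the adaptor that links the receptor to PI3K, was not called either. It gave 12.43, 12.51, 11.75 and 12.53 on control arrays and 12.60, 12.57, 12.95 and 11.65 on silenced arrays. The lowest value of each group was on control replicate 3 and on silenced replicate 4. The change was 0.14 (SE 0.31, 95% interval -0.56 to 0.83, limma adjusted p 0.796). It turned to -0.05 without control replicate 3 (adjusted p 0.922) and was 0.40 without silenced replicate 4 (adjusted p 0.24), so its sign rested on 1 array. Each of these levels is for the whole culture, and fewer cells that express a gene cannot be told apart from less RNA per cell.

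The opposite changes of the Igfbp5 probes and the unequal ones of Igf1r were tested within arrays, as the log2 signal of the 5′ probe minus that of the 3′ probe. For Igfbp5 this difference changed by -2.13 (SE 0.23, limma adjusted p 0.000593, n = 4 and 3), without overlap between groups. It was called under all 15 alternatives, between -2.89 and -1.88. A lower 5′ probe was the common direction on these arrays. Of 6165 genes with an outermost pair, 39.0% were called, 31.8% with the 5′ probe lower and 7.17% with the 5′ probe higher.

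Igf1r went the other way. Between the 2 probes of NM_010513 the difference was higher in silenced cells by 1.42 (SE 0.24, limma adjusted p 0.00203), with every silenced array (1.88 to 3.13) above every control array (1.05 to 1.12). Of 1924 neighbouring pairs 60 to 1000 bases apart, 47.9% were called, 42.5% with the 5′ probe lower and 5.41% with it higher. This Igf1r difference was called under all 15 alternatives, between 1.20 and 1.66.

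The remaining pairs, of Igf1, Igfbp4 and the upstream part of Igf1r, each hold a probe near background. That probe was well above background on 1 of 8 arrays for Igf1, on none for Igfbp4 and on 2 for Igf1r, so no size is given for these pairs here. The neighbouring pairs were chosen after the data were seen. An unequal change within an array shows that probes of one gene did not move together, not which of them stands for the gene.

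**Figure D3:**
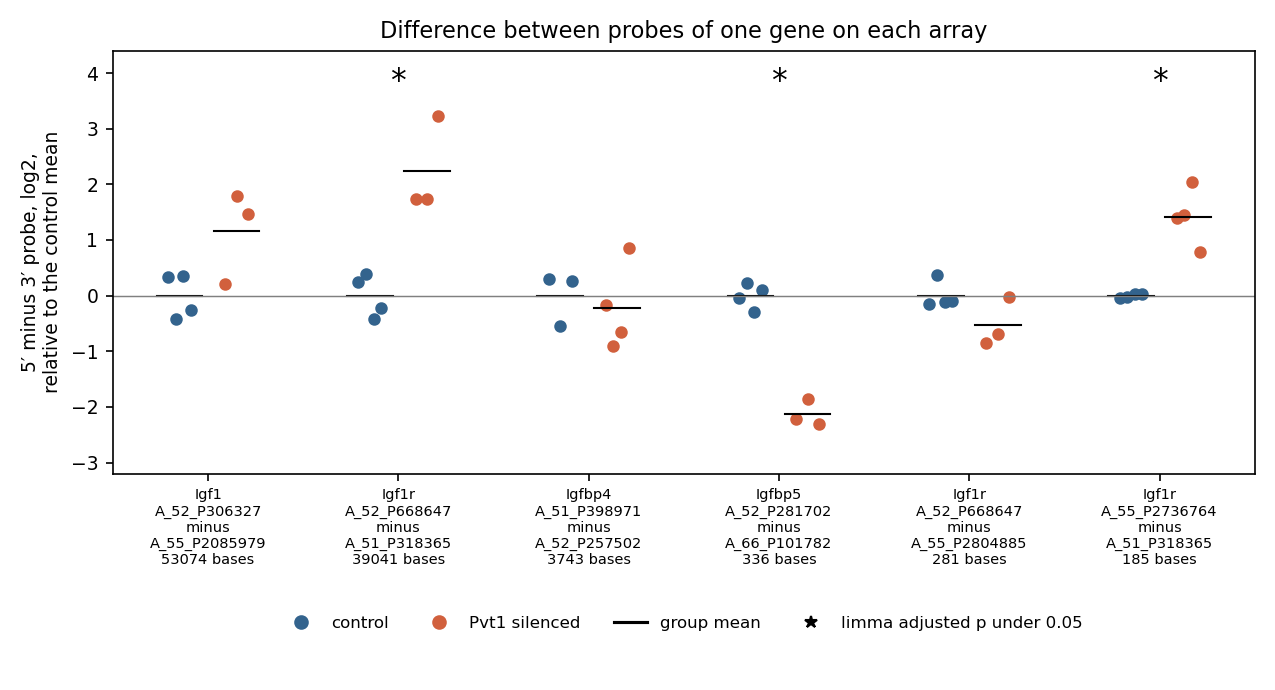
Signal of the 5′ probe minus that of the 3′ probe of the same gene on each array, in log2 and relative to the control mean of that pair, for the outermost tested probes of 4 genes and 2 neighbouring pairs of Igf1r. Points are arrays, black lines are group means and asterisks mark pairs called by limma. The other pairs, the starred outermost pair of Igf1r among them, hold a probe near background and give no measured size. The Igfbp5 pair changed by -2.13 and the NM_010513 pair of Igf1r by 1.42, each without overlap.

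Since Igfbp2 and Igfbp5 lie tail to tail and the Igfbp2 probe and the brighter Igfbp5 probe fell, the 250 bases before their annotated starts are shown (RefSeq, GRCm38.p6). All 10 genes were matched in the RefSeq table, by 14 windows. Igfbp2 has 2 annotated starts (chr1:72824230-72824479 and chr1:72825137-72825386, plus strand) and Igfbp5 has 1 (chr1:72874866-72875115, minus strand). Capitals mark CANNTG, the E-box that myogenic factors and Myc can bind, which reads the same on both strands.
Igfbp2 start 1: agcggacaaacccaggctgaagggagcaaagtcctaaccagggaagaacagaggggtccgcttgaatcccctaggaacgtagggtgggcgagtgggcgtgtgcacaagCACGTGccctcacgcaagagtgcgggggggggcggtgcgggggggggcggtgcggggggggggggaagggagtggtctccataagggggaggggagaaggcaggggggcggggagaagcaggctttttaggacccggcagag
Igfbp2 start 2: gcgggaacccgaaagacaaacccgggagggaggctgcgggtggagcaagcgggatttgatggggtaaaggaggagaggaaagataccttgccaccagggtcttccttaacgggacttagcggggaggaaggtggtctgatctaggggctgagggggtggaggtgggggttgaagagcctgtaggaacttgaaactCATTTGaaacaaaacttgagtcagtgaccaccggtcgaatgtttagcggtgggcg
Igfbp5 start 1: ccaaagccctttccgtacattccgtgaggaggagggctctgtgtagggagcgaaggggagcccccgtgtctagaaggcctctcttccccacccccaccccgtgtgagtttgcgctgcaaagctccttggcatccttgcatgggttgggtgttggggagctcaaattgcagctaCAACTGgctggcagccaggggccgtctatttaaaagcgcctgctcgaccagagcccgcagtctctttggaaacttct

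Motifs were counted in the 250 bases before each annotated start, called windows here. Each of the 3 windows held 1 CANNTG, and 66.2% of all 32851 windows held at least 1. The form CACGTG was in the first Igfbp2 window and in 6.02% of all windows, and among the other members in those of Igf2r and Irs1, neither of which was called. The form CAGCTG, in 13.0% of all windows, was in the Igf1 window alone among the 10 genes. These matches describe the letters in the windows only.

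The genes around the axis were then counted on 8 lists by role, 84 symbols in all, each represented by its brightest tested probe. Of 71 genes tested, 16 were called (22.5%), 4 higher and 12 lower, where 20.0% of the brightest probes of all 19360 genes were called, 5.99% higher and 14.0% lower. The median change of the 71 was -0.20, against -0.19 for all probes and -0.09 for the brightest probes of all genes. The choice of the brightest probe matters for these counts. Over all 132 tested probes of the listed genes 40 were called (30.3%, against 23.2% of all probes), 5 higher and 35 lower, and 17 genes were called lower on another probe but not on the brightest one. No difference between lists was tested.

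On the Ras and MAPK branch 6 of 13 genes were called on the brightest probe. Dusp6, a phosphatase that inactivates ERK, rose by 1.76 (SE 0.25, limma adjusted p 0.00162), and Rps6ka1, a kinase downstream of ERK, rose by 1.56 (adjusted p 0.00816) on a probe whose dimmer neighbour was at -0.58 (adjusted p 0.167). Mapk3, which encodes ERK1, fell by 1.37 (SE 0.23, adjusted p 0.00372) to 38.8% of control. Hras fell by 1.08 (adjusted p 0.0072), but was at -0.55 and not called after a shift to the 75th percentile (adjusted p 0.0763), and its other probe, well above background on 1 of 8 arrays, had a computed change of 1.43 without overlap (adjusted p 0.0603). Map2k1 fell by 0.91 (adjusted p 0.0245) and Map2k2 by 0.73 (adjusted p 0.0329), the last being chosen outside the naming rule because it completes the count. Map2k1 lost its call under 10 of 20 alternatives, the series table (-0.76) and the removal of 5 single arrays among them, though its dimmer probe fell by 1.54 (adjusted p 0.00331).

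On the mTOR branch 6 of 16 genes were called on the brightest probe, and Tsc2, Rps6kb1 and Eif4e were called lower on another. The brightest Tsc2 probe was at 0.66 without overlap (limma adjusted p 0.052), opposite to the called one at -2.66, and the called Eif4e probe was well above background on 1 of 8 arrays. Rps6kb2, an S6 kinase, fell by 1.75 (SE 0.21, limma adjusted p 0.000928) to 29.7% of control and Akt1s1, a brake on mTOR complex 1 that Akt phosphorylates, fell by 1.41 (adjusted p 0.00581), with its other probe at -0.99 (adjusted p 0.0956). Rictor, a subunit of mTOR complex 2, fell by 1.24 (adjusted p 0.00593) on its brightest probe, while another probe well above background on all arrays was at -0.01. Deptor and Mapkap1, also named to complete the count, fell by 1.16 (adjusted p 0.0059) and 0.84 (adjusted p 0.0359). Another Deptor probe, well above background on all 8 arrays, was at 0.13 (adjusted p 0.727), and the other Mapkap1 probes were at -0.62 and -0.36 and not called. Ddit4, an inhibitor of mTOR complex 1 induced by stress, rose by 1.35 (SE 0.21, adjusted p 0.00229) to 2.55-fold. Mtor itself was at -0.85 (adjusted p 0.127) and, on its other probe, at 0.32 (adjusted p 0.457).

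Of the related receptors and adaptors 2 of 15 were called on the brightest probe, and Sos1, Ptpn1 and Ptpn11 were called lower on another, which for Sos1 was well above background on 1 silenced array. Grb14, an adaptor that inhibits the insulin receptor, rose by 1.28 (SE 0.29, limma adjusted p 0.0123), and its other probe, at background in controls and well above it on 3 silenced arrays, was also called higher (adjusted p 0.0281). Irs2, the relative of Irs1, fell by 1.00 (SE 0.29, adjusted p 0.0346), and lost that call under 8 of 20 alternatives, the removal of control replicate 2, 3 or 4 or silenced replicate 1 or 2 among them. The Insr probe, for the insulin receptor, was well above background on no array.

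On the PI3K and Akt list 1 of 17 genes was called on the brightest probe, but 10 of 34 probes were called, all lower. Gsk3a, a kinase that Akt inhibits, was at -0.21 on its brightest probe and fell by 2.42 on the other (limma adjusted p 0.000476). Akt2 was at 0.06 on its brightest probe and fell by 1.86 (adjusted p 0.00428) and 1.04 (adjusted p 0.0156) on the others. Gsk3b fell by 1.28 (adjusted p 0.0203) and Pik3cb by 1.10 (adjusted p 0.0271) on a probe that was not the brightest. Their brightest probes were at -0.19 (adjusted p 0.674) and -0.40 (adjusted p 0.37). Another Gsk3b probe, well above background on all 8 arrays, was at 0.33 (adjusted p 0.492). A further one, at background in all silenced arrays, was called lower at -2.12. Foxo3 was called lower on a probe that was not its brightest and was at background in all silenced arrays. These genes were named after their values were seen. Akt1 fell by 0.84 (SE 0.19, adjusted p 0.011) and on its other 2 probes by 0.99 and 1.12, but was at -0.27 and not called after a shift to the 75th percentile (adjusted p 0.247). It also lost its call with the replicate number (adjusted p 0.0521) or the slide row (adjusted p 0.0633) as a block and without control replicate 4 (adjusted p 0.05).

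Of the other binding proteins Igfbp7, a low-affinity relative, was the only one tested, and fell by 0.99 (SE 0.24, limma adjusted p 0.0153), losing its call under 4 of 20 alternatives. These were the 75th percentile (-0.50, adjusted p 0.0862), the slide row as a block (adjusted p 0.0748), the methods' t-test (adjusted p 0.0527) and the removal of control replicate 4 (adjusted p 0.0517). None of the 4 IGFBP proteases and inhibitors, the 3 IGF2 mRNA-binding proteins or the 2 imprinted neighbours tested was called on its brightest probe. On another probe, Htra1 fell by 1.07 (limma adjusted p 0.0118) and Htra3 by 1.04 (adjusted p 0.0216), where their brightest probes were at 0.57 (adjusted p 0.137) and 1.03 (adjusted p 0.0809). Igf2bp3 was called lower on a probe that was well above background on no silenced array, with its brightest probe at 0.01. Pappa was at -0.32 (adjusted p 0.54). The counts by brightest probe moved with the scaling: cyclic loess gave 16 higher and 12 lower, so the excess of falls was not kept under that scaling, while the 13 genes named by rule kept their direction under all 20 alternatives.

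**Figure D4:**
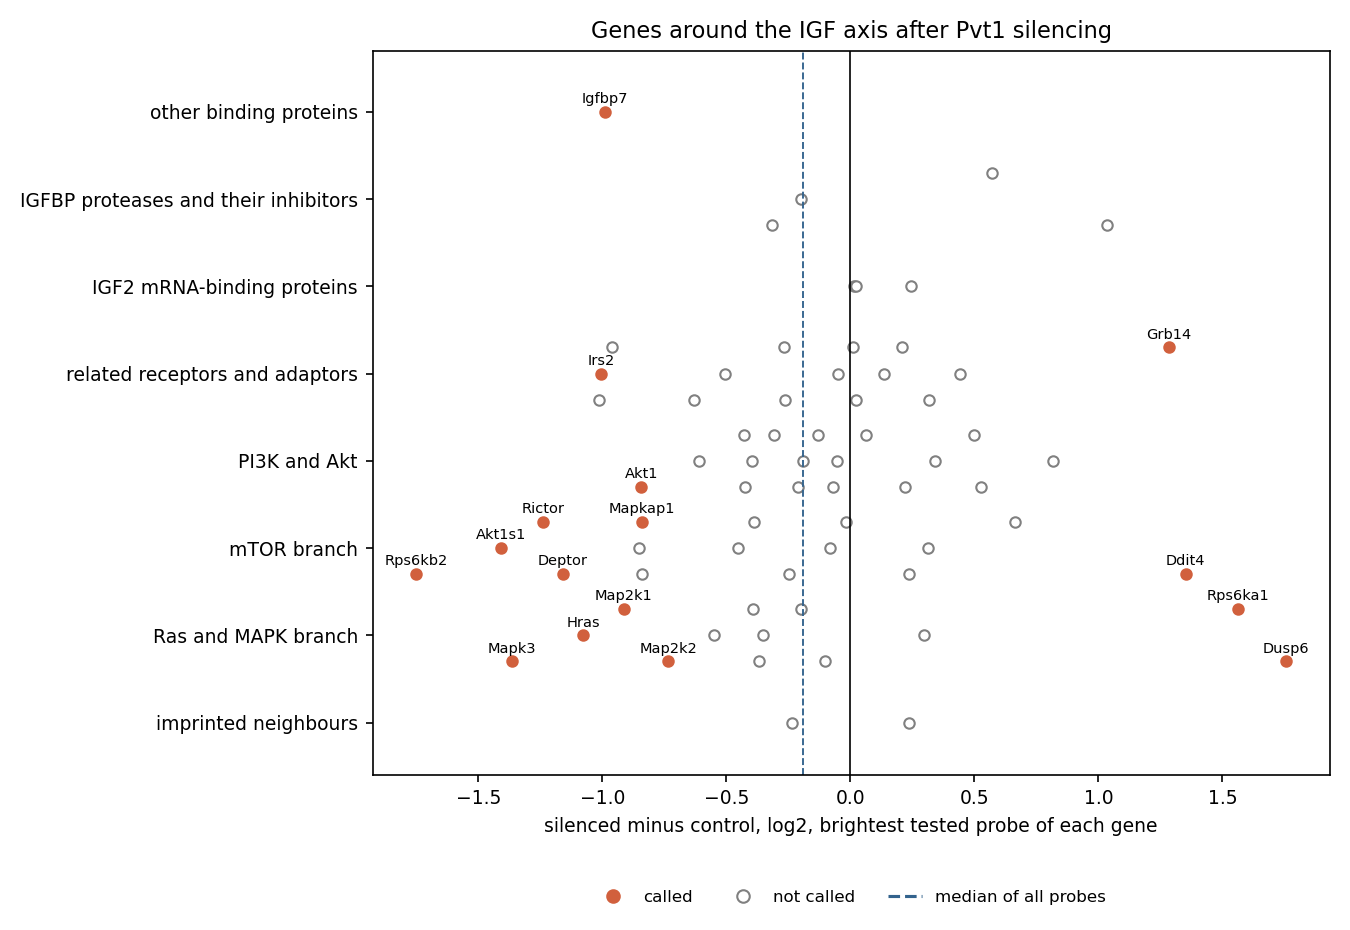
Change of the brightest tested probe of each of 71 genes around the IGF axis (horizontal axis, silenced minus control, log2), by role on the vertical axis, where the small vertical offsets only separate points. Filled points with names are the 16 called genes, and the dashed line is the median change of all tested probes. By this choice of probe 6 of 16 genes were called on the mTOR branch, 6 of 13 on the Ras and MAPK branch and 1 of 17 on the PI3K and Akt list, whereas over all probes 28.1%, 35.7% and 29.4% were called on these lists, and no difference between them was tested.

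Markers of muscle and of other cell types were counted beside the 20.0% of brightest probes called over all genes, 14.0% lower and 5.99% higher. Of the myoblast markers Cdh15, Des and Myod1 fell (3 of 10 tested), Myf5 and Myf6 were well above background on no array, and the summed normalized intensity of the list was 212000 to 233000 in controls and 160000 to 196000 after silencing. Of the differentiated muscle markers Acta1, Atp2a1 and Tmem8c fell (3 of 11 tested), with sums of 5540 to 8040 and 4280 to 4600. Dcn and Pdgfra rose on the fibroblast and adipocyte list (2 of 7 tested), with sums of 9920 to 12700 and 12200 to 13500 and with Adipoq and Thy1 at background. On the blood and endothelial list Cd68 rose and Itgam fell (of 5 tested), with sums of 16500 to 21100 and 24500 to 30500 and with Adgre1, Cdh5 and Pecam1 at background. Hba-a1, a globin chain that was not called (0.54, limma adjusted p 0.111), made up 62.2% to 73.3% of that sum, and without it the sums were 5640 to 6380 and 6620 to 9490. Their part in the changes of Igfbp2, Igfbp5 and Igf1r was not tested.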

How the data were processed

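RNA from 8 cultures was measured on 8 one-colour Agilent arrays (4 per group). The deposited scanner files hold, per spot, the authors' processed signal, an intensity after background subtraction by Feature Extraction (12.0.0.7 in the file headers, 10.7.3.1 in the submitters' processing notes). They also hold deposited 0 or 1 flags for positive, well-above-background, outlier and saturated spots, here treated as another kind of value. The deposited series table holds the authors' normalized intensity, which was put on the log2 scale here and used as an alternative. Positions are mm9, as the file headers give them.

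Of 59305 non-control spots, those not positive and significant (as in the study's methods) or flagged as outliers (chosen here) were set to missing. The log2 values were quantile normalized and spots of a probe averaged, and probes with at least 3 of 4 values per group were tested with lmFit and eBayes (limma 3.58.1, R 4.3.3), with Benjamini-Hochberg adjustment at 0.05 over 28649 probes. Figures were drawn with matplotlib 3.10.9. Pairs of probes at least 60 bases apart were tested the same way, over all genes with such a pair. On data simulated for this comparison with 28649 probes, 15% of 100 changes of 1 and 58% of 100 changes of 2 (log2) were recovered, with 2 false among 75 calls. No other probe was changed in the simulation, whereas 23.2% of tested probes were called in the data. The adjusted threshold was therefore stricter in the simulation, and these shares do not give the power of the comparison. Precision is limited by the number of arrays.

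The 10 members and the lists were chosen with earlier results of these data known. All member probes were described. From the lists, up to 3 called genes with the largest rise and 3 with the largest fall in each role were named, and other genes were added after their values were seen. All arrays share the same slide and scan, but the slide row partly follows the group (row 1 held 3 control arrays and 1 silenced array, row 2 the reverse) and was tried as a block. The alternatives were cyclic loess, the 75th percentile, normexp with an offset of 50, other masks, the series table, other tests, blocks and arrays left out.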

Additional observations from a re-analysis of the deposited data

Results flagged for a closer look

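Among 52 groups of 4 arrays, 4 had an array farther from the other 3 than Dixon's 95% limit (gap over range), and chance gives about 1 in 20. Irs1 on control replicate 3 was at 11.75, against 12.43 to 12.53 on the other control arrays. Akt1s1 on the same array was at 12.37, against 13.09 to 13.2. Irs2 on silenced replicate 4 was at 6.64, against 7.62 to 7.7 on the other silenced arrays. Hras on silenced replicate 3 was at 12.17, against 12.75 to 12.87. Of the 4, 2 were on control replicate 3 and 1 on silenced replicate 4, the arrays that stood apart over all probes.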

How the results depend on the processing

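Igf1r on its most 3′ probe and Igfbp2 were called lower under all 20 alternatives, and the lower Igfbp5 probe and the higher one each lost the call under 1. Igfbp6 turned to a rise of 0.58 with a shift to the 75th percentile. The number of called axis probes, 4, became 7 with cyclic loess, normexp or the 75th percentile, and ranged from 4 to 5 with single arrays left out. Called higher were 3 with cyclic loess, normexp or without both control replicate 3 and silenced replicate 4 (chosen after seeing the data), 5 at the 75th percentile and 0 with the series table or with probes valued on all 8 arrays, and 1 to 2 with single arrays left out. Called lower were 3 whichever single array was left out. The cause was not tested, except that probes valued on all 8 arrays leave out the higher Igfbp5 probe by construction.

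The 4 called axis probes stayed called when slide row was a block, and within rows 1 and 2 the differences were -2.22 and -2.35 for Igf1r, -1.16 and -1.35 for Igfbp2, -1.02 and -1.05 for the 5′ Igfbp5 probe and 1.16 and 1.20 for the 3′ one, untested with 1 array of a group in each row.

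The outermost pairs of Igf1 and Igf1r each hold a probe near background, so their values are computed ones. The Igf1 probe pair (1.16, adjusted p 0.0546 by limma) passed the threshold at the 75th percentile (1.26) and without both arrays (1.27), and ranged from 0.84 to 1.64 with single arrays left out, passing without control replicate 3 (1.27) or silenced replicate 1 (1.64), but was 0.60 without the mask (adjusted p 0.461) and 0.62 with the series table (adjusted p 0.444). The Igf1r pair (2.24, adjusted p 0.00435) lost its call without the mask (1.69) and with the series table (1.71), and ranged from 1.71 to 2.48 with single arrays left out.

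Over all probes, 6642 calls became 10674 with cyclic loess, 10220 with normexp, 11440 at the 75th percentile, 3106 with the slide row as a block, 3420 by the methods' t-test and 12318 without both arrays, and ranged from 3708 (without control replicate 4; 3769 without control replicate 2) to 8859. The methods' t-test counts are after Benjamini-Hochberg adjustment, and at an unadjusted p of 0.05 it gave 9021 probes and 4 axis probes. This two-tailed test with unequal variance is the one stated in a legend for selected genes of these arrays, and the test and correction stated for fibre types were not run. Calls of higher signal, 1373, became 5416, 5195, 7075, 534, 566 and 5341 in the same order, 4990 without the mask and 4509 with the series table, and ranged from 684 to 3572, the latter without silenced replicate 4. Calls of lower signal, 5269, became 2572 with the slide row and 2854 by the methods' t-test and 6977 without both arrays, and ranged from 2995 to 5737. On the role lists, 16 calls became 28 with cyclic loess, 25 without the mask or with the series table, 31 with normexp, 10 with the slide row and 30 without both arrays, and ranged from 10 (without control replicate 4) to 23. Higher were 16 with cyclic loess, 15 without the mask, 18 with normexp, 7 with a robust trended prior, 14 with the series table or without both arrays and 17 at the 75th percentile, with 4 to 10 as single arrays were left out. Lower were 6 at the 75th percentile or with the slide row, and 6 to 13 as single arrays were left out.

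Deviations of same-numbered arrays correlated at -0.04, 0.19, 0.22 and 0.06 over 25108 probes, and those of differently numbered arrays at -0.19 to 0.11. These values do not decide whether the cultures were paired by number. With the replicate number as a block, 5017 probes (1023 higher, 3994 lower), 4 axis probes (1 higher, 3 lower) and 12 list genes (4 higher, 8 lower) were called, and the pairs of Igf1, Igf1r, Igfbp4 and Igfbp5 differed by 1.07, 2.16, -0.07 and -2.09. Signal near background limits Igf2, Igfbp4 and the upstream probes of Igf1 and Igf1r.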
